A study of Capra hircus with 10 samples.

Results

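Collagen genes were read from the transcripts of protein-coding genes in goat ovary, as every official symbol made of COL, a number, A and a number. FPKM (fragments counted on a transcript, relative to its length and the library's total) was summed over the transcripts of a symbol. The rule found 44 collagen genes with 110 transcripts among 20587 protein-coding genes. Ovaries of Anhui white goats (Capra hircus) collected at a slaughterhouse were compared between the luteal phase (n = 5), after ovulation when the corpus luteum is present, and the follicular phase (n = 5), when follicles grow towards ovulation. No treatment and no age is stated, each library came from 1 whole ovary, and the labels do not say that each ovary came from a separate goat, so p-values measure the spread between these ovaries. Markers of luteal and steroidogenic cells (STAR, CYP11A1, LHCGR, PTGFR) summed to FPKM of 4747 to 6538 in luteal phase ovaries and of 122 to 170.1 in follicular phase ovaries, without overlap.

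Collagens are secreted as triple helices of chains, each chain the product of its own gene. Fibrillar types, mainly I and III, build the load-bearing fibres of the ovarian stroma and capsule, while type IV forms the sheet-like network of basement membranes under follicle epithelium, around vessels and around muscle cells. Follicle growth, ovulation and the building of the richly vascularised corpus luteum remodel this matrix in every cycle.

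Collagen transcripts made up a larger share of the protein-coding FPKM in the luteal phase. The share in luteal phase ovaries 1 to 5 was 1.23%, 0.885%, 1.19%, 0.873% and 0.851%, and in follicular phase ovaries 1 to 5 it was 0.775%, 0.516%, 0.757%, 0.643% and 0.574%. Every luteal phase ovary was above every follicular phase ovary, with means of 1.005% ± 0.186 and 0.653% ± 0.113 (SD, n = 5 each). Summed collagen FPKM was 4545 ± 817 in luteal and 3103 ± 435 in follicular phase ovaries. Because RNA came from whole ovaries, fewer cells of a type and less RNA per cell cannot be told apart in any value here.

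Of the 44 genes, 39 passed the filter on low values and were tested with limma. Of these, 20 (51.3%) were called at an adjusted p under 0.05, against 43.7% of all 15359 genes tested, a share near the background. Calls were split evenly: 10 collagen genes were higher in the luteal phase (15.9% of all genes were) and 10 were higher in the follicular phase (27.8% of all genes were). The phases did not overlap in 16 of the 39, and did not overlap in 28.4% of all genes. The median log2 fold change (luteal minus follicular, of FPKM + 0.1) was 0.14 over the 39 collagen genes and -0.14 over all genes tested. The collagen median was 0.06 without luteal phase ovary 3 and 0.08 without follicular phase ovary 2, and with FPKM rescaled to a common total the medians were 0.24 and -0.05. The 5 genes not tested were COL2A1 of cartilage fibrils, COL10A1 of hypertrophic cartilage, the fibril-associated COL19A1 and COL20A1, and the transmembrane COL25A1, whose mean FPKM did not exceed 0.104 in either phase. COL2A1 and COL10A1 stood beside cartilage markers (ACAN, MATN1 and COMP) that summed to FPKM of only 0.0454 to 0.202 over the 10 ovaries.

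**Figure D1:**
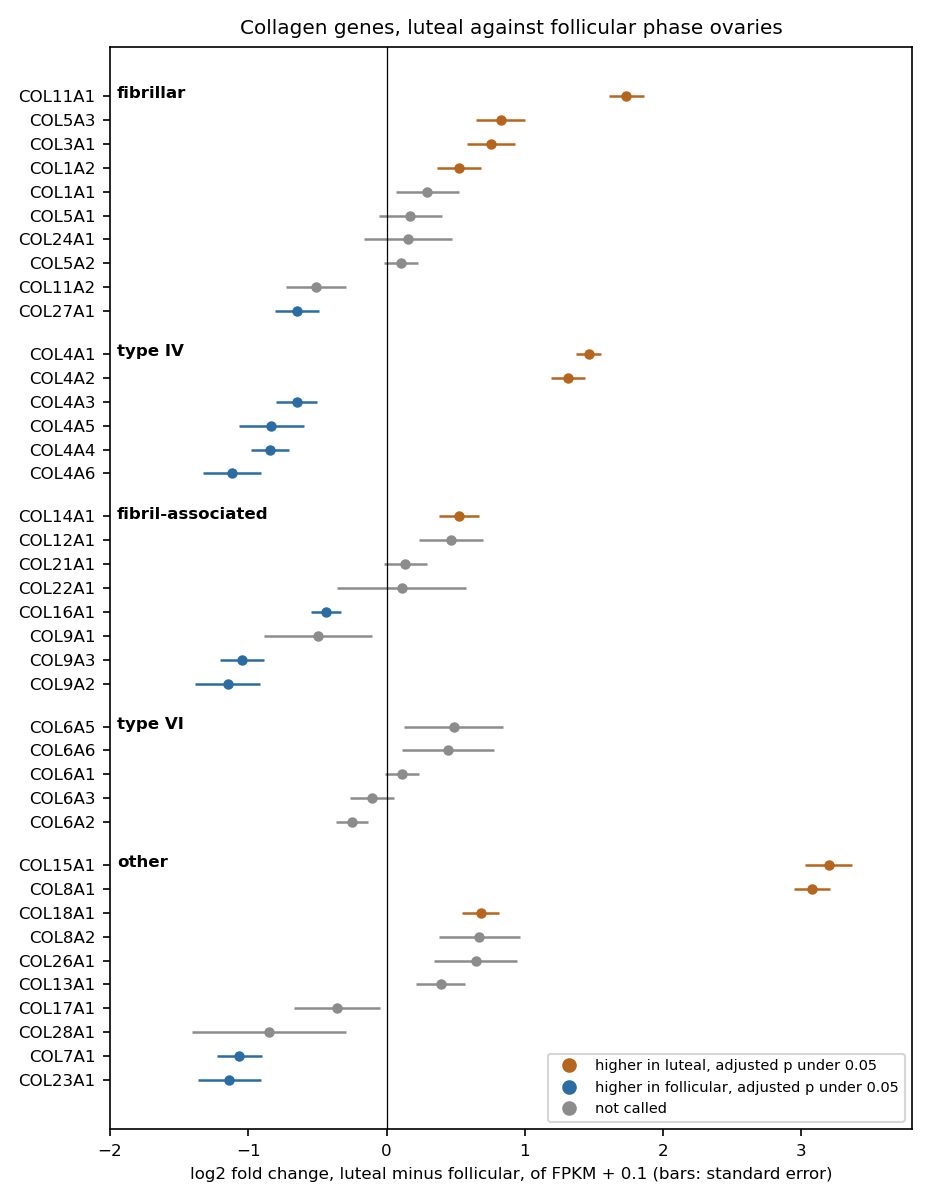
Log2 fold change of the 39 tested collagen genes, luteal minus follicular, on the log2(FPKM + 0.1) scale (x axis), with 1 row per gene grouped by class; bars are the standard error and colours give the call of limma at an adjusted p under 0.05. COL15A1 (3.20) and COL8A1 (3.08) lie farthest to the right, and the type IV chains split into COL4A1 and COL4A2 on the luteal side and COL4A3 to COL4A6 on the follicular side.

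Members were called in both directions in every class except type VI, which had no call. Over all genes tested, 43.7% were called, 15.9% higher in the luteal and 27.8% higher in the follicular phase. Fibrillar genes, fibril-associated genes and the remaining types each had 50% called, near the share over all genes. Of 10 tested fibrillar genes, 4 were higher in the luteal phase, 1 was higher in the follicular phase and 5 were not called, with a median log2 fold change of 0.23. Of the 6 type IV genes, 2 were higher in luteal and 4 in follicular phase ovaries (median -0.74), while their summed FPKM was higher in the luteal phase. Fibril-associated genes gave 1 luteal and 3 follicular calls of 8 tested (median -0.16), and of the 5 type VI genes (median 0.11) 0 were called by limma and 0 had an unadjusted p under 0.05. The remaining types gave 3 luteal and 2 follicular calls of 10 tested (median 0.52). These counts and medians carry no test of the classes.

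In summed FPKM, fibrillar genes held 74.6% ± 2.23 of the collagen total in luteal and 71.7% ± 3.20 in follicular phase ovaries (SD, n = 5 each). Type VI held 8.92% ± 0.609 and 13.9% ± 1.68, and the remaining types held 5.57% ± 1.18 and 2.21% ± 0.495, and in both cases the phases did not overlap. The fibrillar sum was 3401 ± 679 in luteal against 2236 ± 397 in follicular phase ovaries, with overlapping phases. The type VI sum was 403 ± 62.8 against 426 ± 34.5, also with overlap. Its log2 difference was -0.09, but 0.009 with FPKM rescaled to a common total, and -0.16 to -0.03 with single ovaries left out. The sum of the remaining types was 248 ± 34.5 against 67.7 ± 11.4, or 3.66-fold higher in the luteal phase without overlap. The type IV sum was 281 ± 32.6 against 186 ± 14.9, or 1.52-fold higher in the luteal phase without overlap, and its share was 6.29% ± 0.938 and 6.03% ± 0.534. Fibril-associated genes summed to 212 ± 53.5 in luteal and 188 ± 12.1 in follicular phase ovaries, again with overlap, while their share was 4.61% ± 0.354 and 6.12% ± 0.730 without overlap. The log2 difference of their sum was 0.14, and 0.03 to 0.25 with single ovaries left out.

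**Figure D2:**
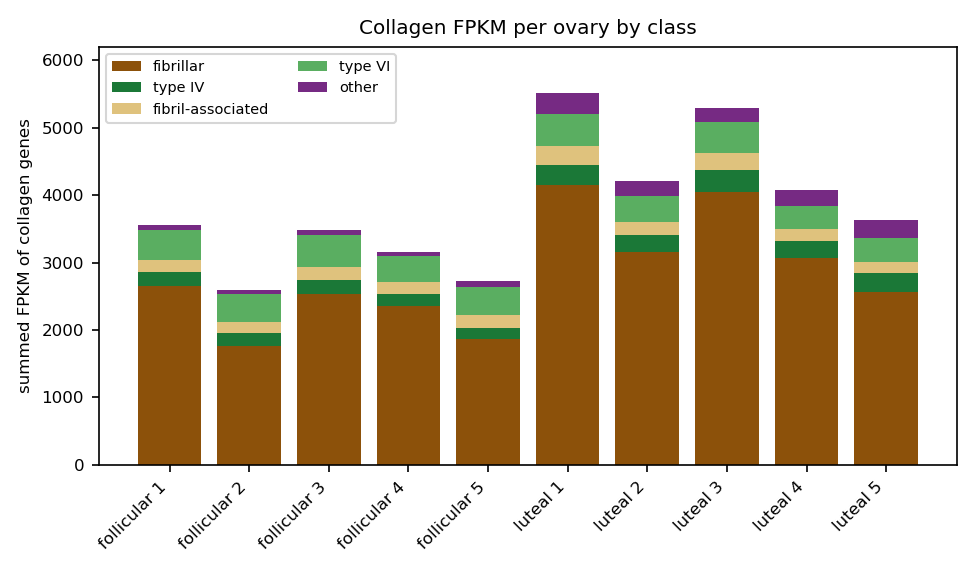
Summed collagen FPKM (y axis) in each of the 10 ovaries (x axis), stacked by class. Totals reach 3630 to 5510.4 in luteal and 2595 to 3555 in follicular phase ovaries, fibrillar genes make up most of each bar, and the band of the remaining types is wider in every luteal phase ovary.

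Type III and type I chains, which co-assemble into the main tissue fibrils, were the most abundant collagens. COL3A1 carries gene ID 100860938 in the table, COL1A1 100860828 and COL1A2 100860940. COL3A1 lay at FPKM of 2223, 1842, 2155, 1734 and 1423 in luteal phase ovaries 1 to 5 and at 1369, 886, 1275, 1196 and 861 in follicular phase ovaries 1 to 5. No luteal phase ovary fell below any follicular phase ovary, the closest being luteal phase ovary 5 and follicular phase ovary 1. COL3A1 was 1.68-fold higher in the luteal phase by its means of 1875 ± 326 and 1117 ± 231, with a log2 fold change of 0.75 ± 0.17 (SE) and a limma adjusted p of 0.00488. COL3A1 alone held 41.3% of collagen FPKM in luteal and 35.7% in follicular phase ovaries.

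COL1A1 and COL1A2 encode the chains of type I collagen. For COL1A2, luteal phase ovaries 1 to 5 gave FPKM of 1200.1, 866, 1203, 903 and 730.5, and follicular phase ovaries 1 to 5 gave 748, 526, 760.0, 715 and 634. Luteal phase ovary 5 lay below follicular phase ovaries 1 and 3, so the phases overlapped. With means of 981 ± 212 in luteal and 677 ± 97.6 in follicular phase ovaries, it was 1.45-fold higher in the luteal phase (log2 fold change 0.52 ± 0.16 (SE), limma adjusted p = 0.0216). COL1A1 had FPKM of 478, 241, 446, 254 and 249 in luteal phase ovaries 1 to 5 and of 335, 198, 307, 267 and 217 in follicular phase ovaries 1 to 5. Luteal phase ovaries 1 and 3 were above all others, while the other luteal phase ovaries lay within the follicular range. The means of 334 ± 118 and 265 ± 57.99 gave a log2 fold change of 0.29 ± 0.23 (SE), which did not pass the test (limma adjusted p = 0.313) and was 0.15 without luteal phase ovary 1 and 0.17 without luteal phase ovary 3.

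Ratios within an ovary do not depend on how the libraries were scaled, and 8 were tested by an exact two-sided permutation test of the log2 ratio, with Benjamini-Hochberg adjustment over the 8 (smallest p that 5 against 5 allows: 0.00794). The ratio of COL3A1 to COL1A1 was 4.65, 7.63, 4.83, 6.84 and 5.71 in luteal phase ovaries 1 to 5 and 4.09, 4.48, 4.16, 4.48 and 3.97 in follicular phase ovaries 1 to 5. Every luteal phase ovary was above every follicular phase ovary (log2 difference 0.46 ± 0.14 SE, exact permutation p = 0.00794, adjusted 0.0212). The ratio of COL1A2 to COL1A1, chains that combine in type I collagen, was 3.06 ± 0.496 in luteal and 2.59 ± 0.257 in follicular phase ovaries, a difference of 0.23 ± 0.12 that did not pass the test (exact permutation p = 0.0952, adjusted 0.127).

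**Figure D3:**
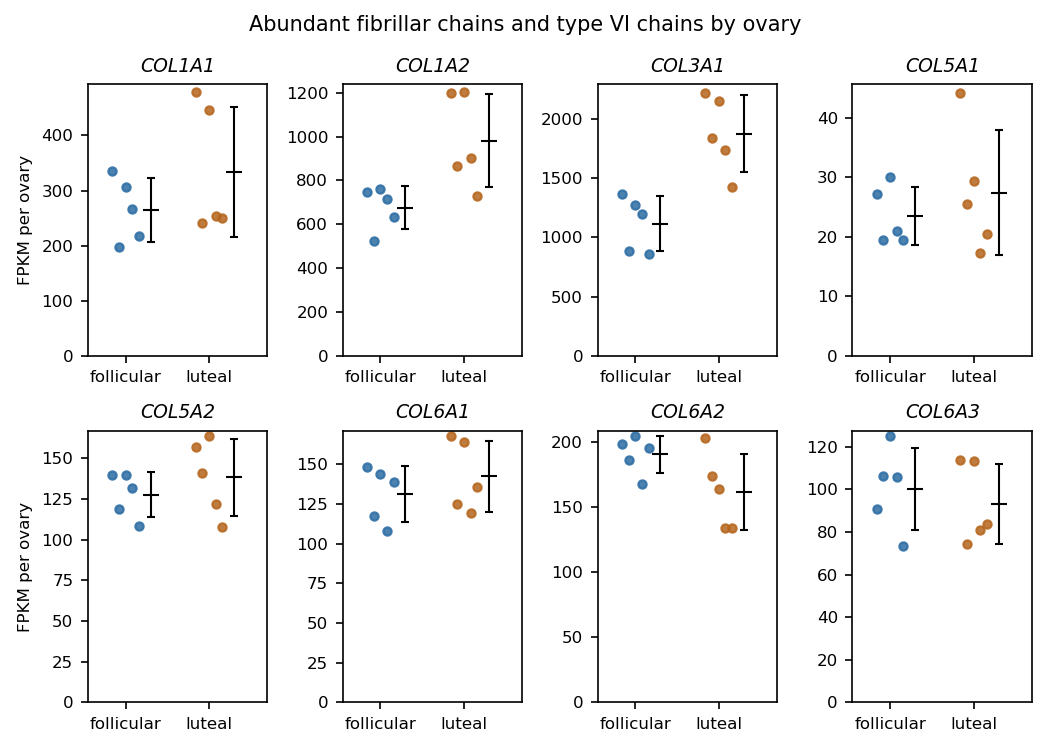
FPKM (y axis, from 0) of the abundant fibrillar chains and of the 3 abundant type VI chains in each ovary; points are ovaries and black bars are the mean and SD of 5 ovaries. COL3A1 separates the phases, COL1A2 nearly so, and luteal phase ovaries 1 and 3 stand above the others in COL1A1 (478 and 446).

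Type V and type XI chains sit in the core of fibrils and set where they nucleate. FPKM of COL11A1 was 28.7, 28.2, 30.8, 28.4 and 20.8 in luteal phase ovaries 1 to 5 and 7.43, 6.89, 7.999, 10.4 and 8.15 in follicular phase ovaries 1 to 5. All luteal phase ovaries were above all follicular phase ovaries, and luteal phase ovary 5 was the lowest of its phase. COL11A1 was 3.35-fold higher in the luteal phase by its means of 27.4 ± 3.82 and 8.17 ± 1.33, with a log2 fold change of 1.73 ± 0.13 (SE) and a limma adjusted p of 3.04e-06. COL5A3 reached FPKM of 9.23, 9.75, 8.41, 6.39 and 7.39 in luteal phase ovaries 1 to 5, against 5.96, 3.62, 5.59, 4.87 and 3.32 in follicular phase ovaries 1 to 5. The lowest luteal phase ovary, 4, lay just above the highest follicular phase ovary, 1. With means of 8.23 ± 1.36 in luteal and 4.67 ± 1.17 in follicular phase ovaries, it was 1.76-fold higher in the luteal phase (log2 fold change 0.82 ± 0.18 (SE), limma adjusted p = 0.00365).

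COL5A1 and COL5A2, the common type V chains, were not called. COL5A2 lay at FPKM of 157, 141, 164, 122 and 107 in luteal phase ovaries 1 to 5 and at 139, 119, 139.9, 132 and 108 in follicular phase ovaries 1 to 5. The ranges of the phases overlapped along most of their length. The means of 138 ± 23.6 and 128 ± 13.8 gave a log2 fold change of 0.10 ± 0.12 (SE), which did not pass the test (limma adjusted p = 0.51). For COL5A1, luteal phase ovaries 1 to 5 gave FPKM of 44.2, 25.5, 29.3, 17.3 and 20.5, and follicular phase ovaries 1 to 5 gave 27.1, 19.5, 30.01, 20.96 and 19.4. Luteal phase ovary 1 was the highest of all and luteal phase ovary 4 the lowest, and without luteal phase ovary 1 the fold change was -0.02. The means of 27.4 ± 10.5 and 23.4 ± 4.86 gave a log2 fold change of 0.17 ± 0.23 (SE), which did not pass the test (limma adjusted p = 0.564). The ratio of COL5A2 to COL5A1 was 5.39 ± 1.25 in luteal and 5.55 ± 0.669 in follicular phase ovaries (log2 difference -0.07 ± 0.18, exact permutation p = 0.762, adjusted 0.762), and was 0.08 on the log2 scale without luteal phase ovary 1. COL11A2, another type XI chain, was near the filter limit with mean FPKM of 0.0780 and 0.152 (log2 fold change -0.51, adjusted p = 0.0785). It was called without the filter (adjusted p = 0.0417) and with eBayes without trend (adjusted p = 0.032).

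COL24A1 and COL27A1 encode less studied fibrillar chains. COL27A1 had FPKM of 7.17, 6.095, 7.102, 5.54 and 6.23 in luteal phase ovaries 1 to 5 and of 11.9, 8.44, 11.2, 7.14 and 12.9 in follicular phase ovaries 1 to 5. Luteal phase ovary 1 lay just above follicular phase ovary 4, and all the other ovaries kept the order of their phases. With means of 6.43 ± 0.698 in luteal and 10.3 ± 2.42 in follicular phase ovaries, it was 1.603-fold higher in the follicular phase (log2 fold change -0.65 ± 0.16 (SE), limma adjusted p = 0.00719). On the most abundant of its transcripts alone, COL27A1 was not called (-0.38, adjusted p = 0.323). Its sum includes XR_001918483.1, whose XR prefix marks a non-coding transcript, with mean FPKM of 0.0531 in luteal and 0.991 in follicular phase ovaries. In follicular phase ovary 2 this transcript had FPKM of 3.65. FPKM of COL24A1 was 3.75, 2.74, 5.28, 2.74 and 2.27 in luteal phase ovaries 1 to 5 and 3.85, 1.25, 3.35, 2.85 and 4.17 in follicular phase ovaries 1 to 5. The phases overlapped and follicular phase ovary 2 was the lowest of all. The means of 3.36 ± 1.205 and 3.09 ± 1.15 gave a log2 fold change of 0.16 ± 0.32 (SE), which did not pass the test (limma adjusted p = 0.711). Its fold change turned to -0.13 without follicular phase ovary 2 and to -0.02 without luteal phase ovary 3.

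Among the 10 tested fibrillar genes, luteal phase ovaries 1 and 3 were the highest pair of their phase in 9, and over all 39 tested collagen genes in 21. Follicular phase ovary 2 was the lowest of its phase in 15 of the 39 and follicular phase ovary 3 the highest in 17. With each ovary left out in turn, the number of collagen genes called stayed between 20 and 22.

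Type IV chains split into opposite directions. Products of COL4A1 and COL4A2 form the network found in nearly all basement membranes, and the genes are direct neighbours with no other protein-coding gene between them in the RefSeq annotation of the ARS1.2 assembly (gene IDs 102171079 and 102171347). COL4A1 reached FPKM of 155, 153, 184, 146 and 175 in luteal phase ovaries 1 to 5, against 67.1, 60.9, 59.4, 55.5 and 51.9 in follicular phase ovaries 1 to 5. No luteal phase ovary came near the follicular range. COL4A1 was 2.76-fold higher in the luteal phase by its means of 163 ± 16.1 and 58.98 ± 5.76, with a log2 fold change of 1.46 ± 0.09 (SE) and a limma adjusted p of 6.13e-07. COL4A2 lay at FPKM of 63.1, 51.1, 78.8, 55.9 and 66.5 in luteal phase ovaries 1 to 5 and at 30.6, 23.8, 26.4, 21.99 and 23.3 in follicular phase ovaries 1 to 5. Again no ovary of the luteal phase reached down to the follicular range. With means of 63.1 ± 10.6 in luteal and 25.2 ± 3.39 in follicular phase ovaries, it was 2.501-fold higher in the luteal phase (log2 fold change 1.31 ± 0.12 (SE), limma adjusted p = 1.68e-05). The ratio of COL4A2 to COL4A1 was 0.386 ± 0.0360 in luteal and 0.427 ± 0.0310 in follicular phase ovaries (log2 difference -0.15 ± 0.08, exact permutation p = 0.0794, adjusted 0.127).

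COL4A3 and COL4A4, also direct neighbours, encode chains that combine with that of COL4A5 in basement membranes of restricted distribution. For COL4A4, luteal phase ovaries 1 to 5 gave FPKM of 14.6, 12.9, 15.2, 13.2 and 13.7, and follicular phase ovaries 1 to 5 gave 24.3, 36.95, 22.2, 24.1 and 20.6. Every follicular phase ovary was above every luteal phase ovary, and follicular phase ovary 2 was far above the rest of its phase. The means were 13.9 ± 0.984 and 25.6 ± 6.504 (SD, n = 5 each), 1.84-fold higher in the follicular phase, with a log2 fold change of -0.85 ± 0.14 (SE) and an adjusted p of 0.000676 (limma). COL4A3 had FPKM of 5.22, 4.82, 6.19, 4.73 and 5.03 in luteal phase ovaries 1 to 5 and of 8.24, 11.95, 6.89, 7.59 and 7.06 in follicular phase ovaries 1 to 5. The order was the same, with follicular phase ovary 2 again the highest. COL4A3 was 1.61-fold higher in the follicular phase by its means of 5.20 ± 0.587 and 8.35 ± 2.09, with a log2 fold change of -0.65 ± 0.15 (SE) and a limma adjusted p of 0.00498.

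COL4A5 and COL4A6 encode the remaining chains, which also assemble with each other. FPKM of COL4A6 was 13.6, 8.87, 12.1, 6.87 and 6.25 in luteal phase ovaries 1 to 5 and 21.02, 15.01, 23.2, 20.4 and 20.8 in follicular phase ovaries 1 to 5. Luteal phase ovary 1 lay just below follicular phase ovary 2, the lowest of its phase, and the phases did not overlap. With means of 9.54 ± 3.22 in luteal and 20.1 ± 3.03 in follicular phase ovaries, it was 2.104-fold higher in the follicular phase (log2 fold change -1.12 ± 0.21 (SE), limma adjusted p = 0.00159). COL4A5 reached FPKM of 41.7, 22.3, 32.3, 21.03 and 18.2 in luteal phase ovaries 1 to 5, against 53.9, 30.4, 58.2, 49.01 and 44.7 in follicular phase ovaries 1 to 5. Here luteal phase ovaries 1 and 3 lay above follicular phase ovary 2, so the phases overlapped. The means were 27.1 ± 9.72 and 47.2 ± 10.7 (SD, n = 5 each), 1.74-fold higher in the follicular phase, with a log2 fold change of -0.83 ± 0.23 (SE) and an adjusted p of 0.0139 (limma). On the most abundant transcript alone COL4A5 was not called (-0.70, adjusted p = 0.073).

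Summed over genes, COL4A1 and COL4A2 reached 226 ± 25.9 in luteal and 84.2 ± 8.81 in follicular phase ovaries, 2.68-fold higher in the luteal phase. COL4A3 to COL4A6 reached 55.8 ± 14.0 and 101 ± 7.73, 1.82-fold higher in the follicular phase. Both sums separated the phases. COL4A1 and COL4A2 took 5.08% ± 0.982 of collagen FPKM in luteal and 2.74% ± 0.330 in follicular phase ovaries, and COL4A3 to COL4A6 took 1.22% ± 0.0929 and 3.29% ± 0.238. Relative to the type I chain, the ratio of COL4A1 to COL1A1 was 0.323, 0.635, 0.412, 0.576 and 0.703 in luteal phase ovaries 1 to 5 and 0.2003, 0.308, 0.194, 0.208 and 0.2396 in follicular phase ovaries 1 to 5. The phases did not overlap (log2 difference 1.17 ± 0.24, exact permutation p = 0.00794, adjusted 0.0212).

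**Figure D4:**
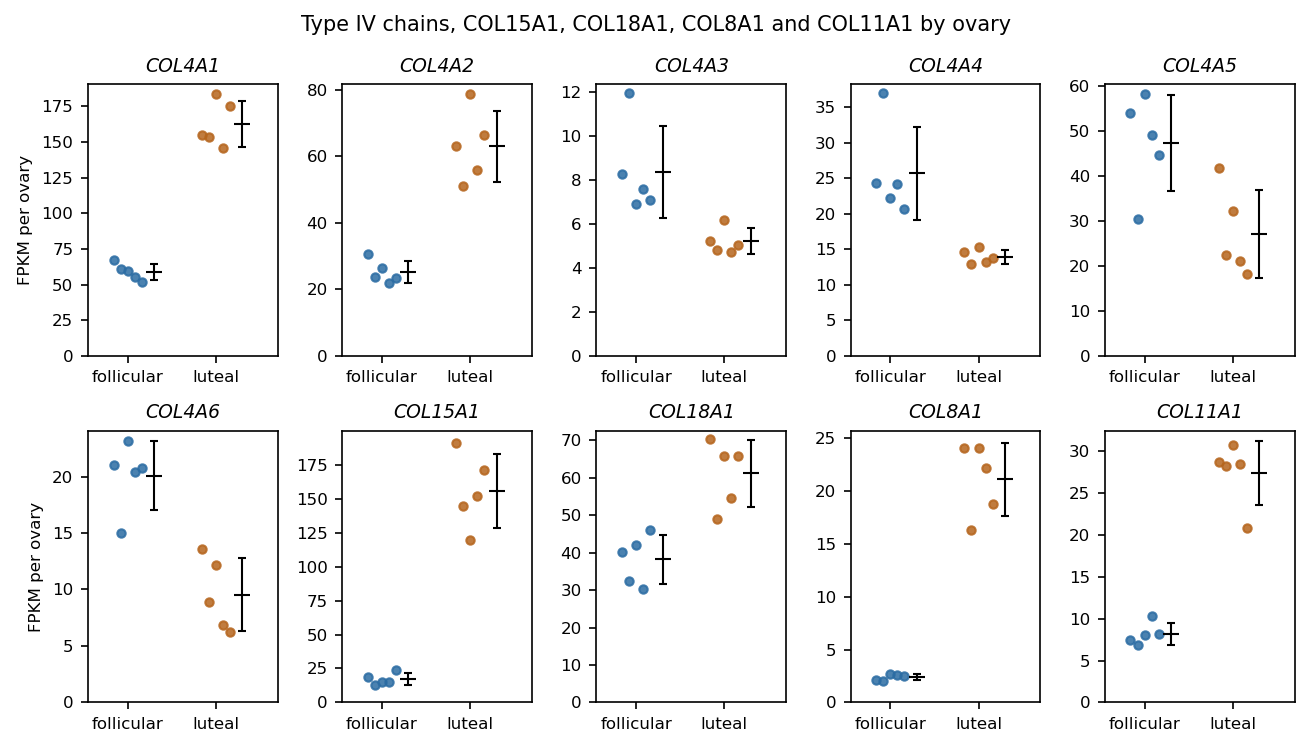
FPKM (y axis, from 0) of the 6 type IV chains, COL15A1, COL18A1, COL8A1 and COL11A1 in each ovary; points are ovaries and black bars are the mean and SD of 5 ovaries. COL4A1 and COL4A2 are higher in every luteal phase ovary, COL4A3, COL4A4 and COL4A6 in every follicular phase ovary, and COL4A5 overlaps.

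Endothelial markers moved with COL4A1 and COL4A2. All 5 of PECAM1, CDH5, VWF, KDR and TEK were called higher in the luteal phase (log2 fold changes of 0.91 to 1.59), and summed to FPKM of 184 to 236 in the luteal phase against 79.7 to 92.6 in the follicular phase. Of 6 smooth muscle and pericyte markers, ACTA2, MYH11, TAGLN, CNN1 and DES were called higher in the follicular phase and the pericyte marker RGS5 in the luteal phase, with summed FPKM of 648 to 1060.1 against 1219.8 to 1519. Of 5 granulosa cell markers, FSHR, AMH and FOXL2 were called higher in the follicular phase and CYP19A1 and INHA were not called, with summed FPKM of 78.6 to 489 against 135 to 767. Of 5 stroma markers, COLEC11 was called higher in luteal and TCF21 and NR2F2 in follicular phase ovaries, with sums of 129.8 to 192 against 164 to 228. Of 2 tested oviduct epithelium markers, TPPP3 was called higher in the follicular phase, with sums of 5.004 to 6.78 against 7.69 to 8.85, and the blood markers ALAS2 and AHSP summed to at most 0.746 in any ovary. The part of these cell types in the collagen results was not tested.

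The largest differences among the tested collagen genes lay in types XV and VIII. COL15A1 encodes a collagen with heparan or chondroitin sulphate chains at the outer face of basement membranes, mostly of vessels and muscle (gene ID 100860925). COL15A1 lay at FPKM of 191, 144, 119.8, 152 and 171 in luteal phase ovaries 1 to 5 and at 18.6, 12.9, 14.9, 14.95 and 24.2 in follicular phase ovaries 1 to 5. The lowest luteal phase ovary was at 119.8 and the highest follicular phase ovary at 24.2. COL15A1 was 9.101-fold higher in the luteal phase by its means of 156 ± 27.04 and 17.1 ± 4.46, with a log2 fold change of 3.20 ± 0.17 (SE) and a limma adjusted p of 2.11e-07. COL8A1 encodes a short-chain collagen of the vessel wall and of other endothelial matrices (gene ID 102175894). For COL8A1, luteal phase ovaries 1 to 5 gave FPKM of 24.1, 16.4, 24.1, 22.2 and 18.8, and follicular phase ovaries 1 to 5 gave 2.15, 2.04, 2.72, 2.64 and 2.48. No follicular phase ovary came near the luteal range. With means of 21.1 ± 3.44 in luteal and 2.41 ± 0.301 in follicular phase ovaries, it was 8.78-fold higher in the luteal phase (log2 fold change 3.08 ± 0.13 (SE), limma adjusted p = 3.74e-08).

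COL18A1, the relative of COL15A1 and the source of the fragment endostatin, was higher in the luteal phase too, but less so. COL18A1 had FPKM of 70.5, 48.9, 65.9, 54.5 and 65.9 in luteal phase ovaries 1 to 5 and of 40.3, 32.4, 41.9, 30.4 and 46.1 in follicular phase ovaries 1 to 5. The phases did not overlap. The means were 61.2 ± 9.03 and 38.2 ± 6.61 (SD, n = 5 each), 1.60-fold higher in the luteal phase, with a log2 fold change of 0.68 ± 0.13 (SE) and an adjusted p of 0.00213 (limma). The ratio of COL18A1 to COL15A1 was 0.369, 0.339, 0.5504, 0.358 and 0.385 in luteal phase ovaries 1 to 5 and 2.16, 2.51, 2.82, 2.03 and 1.91 in follicular phase ovaries 1 to 5, so that the more abundant of the pair was COL15A1 in every luteal phase ovary and COL18A1 in every follicular phase ovary. This difference was -2.52 ± 0.16 on the log2 scale (exact permutation p = 0.00794, adjusted 0.0212), and -3.88 on the most abundant transcript of each gene.

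**Figure D5:**
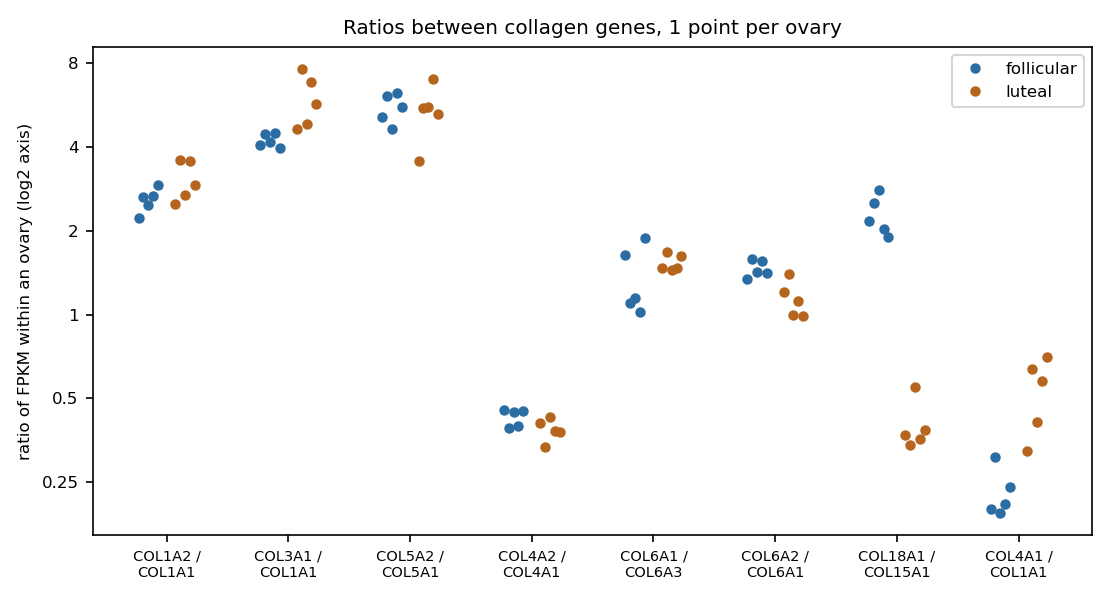
Ratio of FPKM between 2 collagen genes within an ovary (y axis, log2 scale) for 8 ratios (x axis); each point is an ovary, coloured by phase. The phases are apart for COL3A1 to COL1A1, COL18A1 to COL15A1 and COL4A1 to COL1A1, and overlap for the other ratios, COL6A2 to COL6A1 only slightly.

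Lower in the luteal phase among the remaining types were COL7A1, the anchoring fibril of stratified epithelium, and COL23A1, a transmembrane collagen, both at low FPKM. FPKM of COL23A1 was 0.571, 0.457, 0.249, 0.235 and 0.369 in luteal phase ovaries 1 to 5 and 0.724, 1.12, 0.8203, 0.8299 and 1.13 in follicular phase ovaries 1 to 5. All follicular phase ovaries were above all luteal phase ovaries. COL23A1 was 2.46-fold higher in the follicular phase by its means of 0.376 ± 0.142 and 0.925 ± 0.188, with a log2 fold change of -1.14 ± 0.23 (SE) and a limma adjusted p of 0.0023. COL7A1 reached FPKM of 0.834, 0.779, 0.792, 0.535 and 0.613 in luteal phase ovaries 1 to 5, against 1.35, 1.53, 2.05, 1.47 and 1.55 in follicular phase ovaries 1 to 5. The order of the phases was the same, with follicular phase ovary 3 the highest. With means of 0.711 ± 0.129 in luteal and 1.59 ± 0.269 in follicular phase ovaries, it was 2.24-fold higher in the follicular phase (log2 fold change -1.06 ± 0.17 (SE), limma adjusted p = 0.000509). The other 5 tested genes of this group were not called: COL8A2, partner of COL8A1, with mean FPKM of 1.87 and 1.10 (log2 fold change 0.67, adjusted p = 0.0833), COL26A1 (0.64, adjusted p = 0.102), the transmembrane COL13A1 (0.39, adjusted p = 0.0919), COL17A1 of hemidesmosomes (-0.36, adjusted p = 0.367) and COL28A1 (-0.85, adjusted p = 0.234). COL8A2 and COL13A1 were called with a common median (0.76 and 0.48) or quantile normalization (0.75 and 0.48). COL8A2 was also called on its most abundant transcript (1.41, adjusted p = 0.0243), without follicular phase ovary 5 (0.84, adjusted p = 0.0363) and without luteal phase ovary 5 (0.83, adjusted p = 0.0445), and was at 0.44 (adjusted p = 0.169) without luteal phase ovary 1. COL17A1 (-0.67, adjusted p = 0.0169) and COL26A1 (0.89, adjusted p = 0.0124) were called without follicular phase ovary 2, and COL13A1 without luteal phase ovary 2 (0.52, adjusted p = 0.0255). COL17A1 was at -0.21 without follicular phase ovary 5 and -0.23 without follicular phase ovary 3, and COL28A1 at -0.50 without follicular phase ovary 3.

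Type VI collagen forms beaded filaments around cells from a COL6A1, a COL6A2 and a further chain such as that of COL6A3. COL6A1 lay at FPKM of 168, 125, 164, 119 and 136 in luteal phase ovaries 1 to 5 and at 148, 118, 144, 108 and 139 in follicular phase ovaries 1 to 5. The phases overlapped along most of their range. The means of 142 ± 22.4 and 131 ± 17.5 gave a log2 fold change of 0.11 ± 0.12 (SE), which did not pass the test (limma adjusted p = 0.471). For COL6A2, luteal phase ovaries 1 to 5 gave FPKM of 203, 174, 164, 134 and 134, and follicular phase ovaries 1 to 5 gave 199, 186, 204, 167 and 195. Luteal phase ovaries 1 and 2 were within the follicular range and the others below it. The means of 162 ± 29.2 and 190.4 ± 14.4 gave a log2 fold change of -0.25 ± 0.12 (SE), which did not pass the test (limma adjusted p = 0.101). COL6A3 had FPKM of 114, 74.4, 113, 81.01 and 83.6 in luteal phase ovaries 1 to 5 and of 90.7, 106, 125, 106 and 73.4 in follicular phase ovaries 1 to 5. Both phases spanned a similar range. The means of 93.2 ± 18.9 and 100.2 ± 19.3 gave a log2 fold change of -0.11 ± 0.16 (SE), which did not pass the test (limma adjusted p = 0.615).

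The ratio of COL6A2 to its neighbour and partner COL6A1 was 1.21, 1.39, 0.998, 1.12 and 0.988 in luteal phase ovaries 1 to 5 and 1.34, 1.59, 1.42, 1.55 and 1.41 in follicular phase ovaries 1 to 5. Luteal phase ovary 2 alone reached into the follicular range. The log2 difference was -0.37 ± 0.10 (exact permutation p = 0.0159, adjusted 0.0317). It missed the threshold when any single ovary other than luteal phase ovary 2 or follicular phase ovary 1 was left out (adjusted p of 0.0508 to 0.0635). With single ovaries left out, its log2 difference ran from -0.44 to -0.32. Fewer ovaries also allow fewer arrangements in the exact test: the adjusted p of COL3A1 to COL1A1 rose from 0.0212 to 0.0423 without luteal phase ovary 1. The ratio of COL6A1 to COL6A3 was 1.54 ± 0.103 and 1.36 ± 0.380 (log2 difference 0.22 ± 0.18, exact permutation p = 0.214, adjusted 0.245). Without luteal phase ovary 1, COL6A2 itself was called (-0.34, limma adjusted p = 0.0239).

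COL6A5 and COL6A6, neighbours that encode alternatives to the COL6A3 chain, were low. FPKM of COL6A5 was 2.67, 3.82, 8.24, 5.45 and 5.77 in luteal phase ovaries 1 to 5 and 1.697, 3.52, 3.72, 3.01 and 6.99 in follicular phase ovaries 1 to 5. The phases overlapped. The means of 5.19 ± 2.12 and 3.79 ± 1.96 gave a log2 fold change of 0.49 ± 0.36 (SE), which did not pass the test (limma adjusted p = 0.289). COL6A6 had mean FPKM of 0.717 ± 0.265 in luteal and 0.525 ± 0.339 in follicular phase ovaries (log2 fold change 0.45, adjusted p = 0.297). COL6A4 was not analysed here.

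Fibril-associated collagens decorate the surface of fibrils and link them to other matrix. COL16A1 reached FPKM of 62.3, 49.8, 63.9, 50.01 and 44.6 in luteal phase ovaries 1 to 5, against 74.6, 66.9, 78.7, 65.7 and 77.8 in follicular phase ovaries 1 to 5. All follicular phase ovaries were above all luteal phase ovaries. COL16A1 was 1.34-fold higher in the follicular phase by its means of 54.1 ± 8.504 and 72.8 ± 6.09, with a log2 fold change of -0.44 ± 0.11 (SE) and a limma adjusted p of 0.0071. COL9A2 and COL9A3 encode chains of type IX, best known from cartilage. COL9A3 lay at FPKM of 4.395, 3.09, 2.88, 3.496 and 2.96 in luteal phase ovaries 1 to 5 and at 5.52, 5.87, 9.08, 7.79 and 7.12 in follicular phase ovaries 1 to 5. The phases did not overlap. With means of 3.36 ± 0.624 in luteal and 7.08 ± 1.45 in follicular phase ovaries, it was 2.104-fold higher in the follicular phase (log2 fold change -1.04 ± 0.16 (SE), limma adjusted p = 0.000467). For COL9A2, luteal phase ovaries 1 to 5 gave FPKM of 0.4802, 0.648, 0.302, 0.693 and 0.421, and follicular phase ovaries 1 to 5 gave 1.02, 1.57, 1.09, 1.63 and 0.908. The same order held at a lower FPKM. The means were 0.509 ± 0.162 and 1.24 ± 0.333 (SD, n = 5 each), 2.44-fold higher in the follicular phase, with a log2 fold change of -1.15 ± 0.23 (SE) and an adjusted p of 0.00248 (limma). The remaining type IX chain, COL9A1, lay at mean FPKM of 0.183 and 0.251 and was not called (-0.49, adjusted p = 0.323), but was called without luteal phase ovary 1, the highest of its phase (-0.86, adjusted p = 0.0282).

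COL14A1 encodes a collagen that binds type I fibrils. COL14A1 had FPKM of 69.8, 65.6, 94.6, 58.95 and 48.8 in luteal phase ovaries 1 to 5 and of 50.8, 43.7, 46.4, 42.2 and 46.1 in follicular phase ovaries 1 to 5. Luteal phase ovary 5 was below follicular phase ovary 1, so the phases overlapped. COL14A1 was 1.47-fold higher in the luteal phase by its means of 67.6 ± 17.1 and 45.8 ± 3.29, with a log2 fold change of 0.53 ± 0.14 (SE) and a limma adjusted p of 0.0126. Its most abundant transcript alone was not called (0.82, adjusted p = 0.094). COL12A1, its close relative, ran from 45.7 in luteal phase ovary 5 to 135 in luteal phase ovary 1, while the follicular phase ovaries lay between 48.5 and 57.0, and it was not called (0.47 ± 0.23, adjusted p = 0.122). Without luteal phase ovary 1 it was at 0.24 (adjusted p = 0.205), and without luteal phase ovary 5 it was called (0.63, adjusted p = 0.0381). COL21A1 (0.14, adjusted p = 0.496) and COL22A1 (0.11, adjusted p = 0.863) were not called either, and COL22A1 changed sign when follicular phase ovary 1 (-0.30) or follicular phase ovary 2 (-0.05) was left out.

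Some collagen genes lie next to each other in the genome, and their calls were compared. COL3A1 and COL5A2 are direct neighbours in the same annotation, yet only COL3A1 was called (0.75 against 0.10). COL6A1 and COL6A2 are direct neighbours with COL18A1 2 protein-coding genes away from COL6A1, and of these only COL18A1 was called. The differences between these neighbours were not tested, apart from the ratio of COL6A2 to COL6A1. COL4A1 with COL4A2, and COL4A3 with COL4A4, were pairs in which both were called in the same direction.

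Annotated transcripts were then fitted separately, with adjustment over all transcripts tested. Of the 110 collagen transcripts, 75 were tested and 20 (26.7%) were called, against 17.3% of all 32842 transcripts tested. The count includes XM_018038313.1 of COL7A1 and XM_018050566.1 of COL23A1, which were under FPKM of 0.1 in every luteal phase ovary and passed the filter only through the follicular phase, so that a difference was built into their selection. It also includes XR_001918483.1 of COL27A1 (log2 fold change -2.31, limma adjusted p = 0.0421), at 0 in every luteal phase ovary except ovary 2 (0.266). The follicular phase values of this transcript, 0.212 to 3.65, met the filter by themselves. No gene had transcripts called in both directions. At gene level 22 of the 44 genes had a single transcript, and 12 had 2 or more with a mean FPKM of at least 1. How fragments are split between overlapping transcripts is an estimate made upstream.

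COL15A1 had several abundant transcripts. Its transcript XM_018052231.1 had a mean FPKM of 72.6 ± 16.8 in luteal and 4.43 ± 3.53 in follicular phase ovaries (log2 fold change 4.55 ± 0.67, adjusted p = 0.00144), and XM_018052229.1 had 19.5 ± 8.35 and 2.35 ± 1.14 (3.13 ± 0.55, adjusted p = 0.00377). The other abundant COL15A1 transcripts, XM_018052232.1 (38.0 ± 22.4 and 7.71 ± 2.14) and XM_018052230.1 (25.7 ± 20.0 and 2.63 ± 2.33), had higher luteal means but were not called (adjusted p of 0.0768 and 0.335). In COL18A1, XM_018052213.1 carried most of the FPKM and was called (0.67, adjusted p = 0.0221), and XM_018052201.1 (0.41, adjusted p = 0.489) and XM_018052207.1 (0.75, adjusted p = 0.0994) were not.

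Other genes with several abundant transcripts gave calls on few of them. COL16A1 was called on XM_018057521.1 (-0.46, adjusted p = 0.0179) and not on XM_018057459.1, XM_018057511.1 or XM_018057501.1. COL5A3 was called on XM_018051009.1 (0.83, adjusted p = 0.0164) and not on XM_005682449.3. None of the abundant transcripts of COL4A4 (XM_018058849.1, XM_018058850.1 and XM_018058852.1), COL14A1 (XM_018058141.1, XM_018058140.1 and XM_018058142.1), COL12A1 (XM_018052868.1 and XM_018052870.1), COL13A1 (XM_018042561.1 and XM_018042566.1), COL6A2 (XM_018052331.1 and XM_018052339.1), COL6A5 (XM_018052941.1 and XM_018052932.1) or COL6A3 (XM_018040704.1, XM_013963034.2, XM_018040712.1 and XM_018040719.1) was called. For COL4A5, XM_005700226.2 was not called, and XM_005700225.3 was listed at 0 in 9 of the 10 ovaries.

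Genes that make, trim, bind or cleave collagen were listed as partners, and 73 of the 79 listed were tested. Of these, 20 were higher in the luteal phase, 12 in the follicular phase and 41 were not called, beside backgrounds of 15.9% and 27.8% of all genes. With FPKM rescaled to a common total per ovary the split was 25 and 6, and without follicular phase ovary 1 it was 17 and 7. Among 20 tested hydroxylases and chaperones, which modify and fold the chains, 4 were higher in luteal and 1 in follicular phase ovaries. FPKM of P3H2 was 33.5, 35.2, 48.5, 34.2 and 38.5 in luteal phase ovaries 1 to 5 and 21.7, 13.3, 13.2, 12.7 and 20.8 in follicular phase ovaries 1 to 5. The prolyl 3-hydroxylase P3H2 was higher in every luteal phase ovary. With means of 37.97 ± 6.19 in luteal and 16.3 ± 4.51 in follicular phase ovaries, it was 2.32-fold higher in the luteal phase (log2 fold change 1.24 ± 0.17 (SE), limma adjusted p = 0.000253). FKBP14, a prolyl isomerase of the endoplasmic reticulum, had a log2 fold change of 0.69 (adjusted p = 0.000184), and MIA3, which helps export of bulky procollagen, of 0.49 (adjusted p = 0.00663). FKBP14 reached FPKM of 30.1, 27.4, 23.3, 29.8 and 26.1 in luteal phase ovaries 1 to 5, against 16.4, 15.1, 16.7, 19.6 and 16.4 in follicular phase ovaries 1 to 5. MIA3 had FPKM of 46.2, 45.7, 46.4, 60.2 and 67.4 in luteal phase ovaries 1 to 5 and of 40.1, 41.2, 34.2, 33.9 and 37.5 in follicular phase ovaries 1 to 5. Both separated the phases. CRTAP, a part of the prolyl 3-hydroxylase complex, had -0.27 (adjusted p = 0.0388). CRTAP lay at FPKM of 18.1, 16.6, 18.6, 17.1 and 15.2 in luteal phase ovaries 1 to 5 and at 22.8, 17.3, 20.5, 19.3 and 24.1 in follicular phase ovaries 1 to 5. It overlapped between the phases and lost its call without luteal phase ovary 2, 4 or 5 or follicular phase ovary 1, 3 or 5 (adjusted p of 0.0652 to 0.0916).

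Of 8 tested propeptide-trimming enzymes and helpers, 4 were called higher in luteal and 1 in follicular phase ovaries, and of 7 crosslinking enzymes 4 and 1, beside 15.9% and 27.8% of all genes. The lists themselves were not tested. ADAMTS14 and ADAMTS3, which remove amino-terminal propeptides, had log2 fold changes of 1.29 (adjusted p = 0.0017) and 1.21 (adjusted p = 0.000297), and BMP1, which removes carboxy-terminal propeptides, of 0.76 (adjusted p = 1.11e-05). FPKM of ADAMTS14 was 2.24, 3.15, 1.14, 1.41 and 1.53 in luteal phase ovaries 1 to 5 and 0.675, 0.788, 0.689, 0.683 and 0.5301 in follicular phase ovaries 1 to 5. For ADAMTS3, luteal phase ovaries 1 to 5 gave FPKM of 10.2, 18.9, 11.2, 10.7 and 11.6, and follicular phase ovaries 1 to 5 gave 5.94, 4.72, 4.31, 4.88 and 6.42. BMP1 reached FPKM of 22.2, 23.4, 24.1, 21.3 and 23.3 in luteal phase ovaries 1 to 5, against 14.9, 13.3, 12.5, 13.6 and 13.1 in follicular phase ovaries 1 to 5. Each of these separated the phases. TLL2, a relative of BMP1, was at -0.41 (adjusted p = 0.0338). TLL2 had FPKM of 51.5, 46.8, 62.2, 42.1 and 61.7 in luteal phase ovaries 1 to 5 and of 76.01, 71.7, 51.9, 69.5 and 83.2 in follicular phase ovaries 1 to 5. It overlapped, and lost its call without luteal phase ovary 1, 2 or 4 or follicular phase ovary 1, 2, 4 or 5 (adjusted p of 0.055 to 0.0836). The lysyl oxidase LOX, which starts crosslinking of fibrils, was higher in every luteal phase ovary. LOX lay at FPKM of 33.4, 25.3, 31.3, 25.5 and 18.6 in luteal phase ovaries 1 to 5 and at 13.4, 7.78, 12.2, 13.1 and 9.29 in follicular phase ovaries 1 to 5. With means of 26.8 ± 5.81 in luteal and 11.2 ± 2.497 in follicular phase ovaries, it was 2.401-fold higher in the luteal phase (log2 fold change 1.26 ± 0.19 (SE), limma adjusted p = 0.000358). LOXL2 (0.89, adjusted p = 0.000389) and LOXL4 (1.16, adjusted p = 0.0316), of the same family, went the same way and LOXL3 the opposite way (-0.92, adjusted p = 0.00104). For LOXL2, luteal phase ovaries 1 to 5 gave FPKM of 11.5, 10.8, 13.7, 11.3 and 12.7, and follicular phase ovaries 1 to 5 gave 6.74, 4.57, 7.53, 6.39 and 7.26. LOXL4 reached FPKM of 2.36, 3.81, 2.97, 5.29 and 4.74 in luteal phase ovaries 1 to 5, against 1.29, 4.88, 1.23, 1.395 and 0.907 in follicular phase ovaries 1 to 5. LOXL3 had FPKM of 9.84, 5.66, 6.699, 5.28 and 6.39 in luteal phase ovaries 1 to 5 and of 12.1, 11.3, 16.1, 11.6 and 12.5 in follicular phase ovaries 1 to 5. LOXL4 in follicular phase ovary 2 was within the luteal range, and its call was lost without luteal phase ovary 2, 4 or 5 or follicular phase ovary 1, 3, 4 or 5 (adjusted p of 0.0565 to 0.0767). LOXL2 and LOXL3 separated the phases.

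Of 15 proteoglycans and glycoproteins that organise fibrils, 4 were higher in luteal and 2 in follicular phase ovaries, or 6 in all, near the 43.7% of all genes called in either direction. POSTN lay at FPKM of 171, 322, 239, 165 and 166 in luteal phase ovaries 1 to 5 and at 7.52, 13.5, 9.799, 12.2 and 13.98 in follicular phase ovaries 1 to 5. POSTN, encoding periostin, was higher in every luteal phase ovary. The means were 213 ± 68.5 and 11.4 ± 2.70 (SD, n = 5 each), 18.7-fold higher in the luteal phase, with a log2 fold change of 4.19 ± 0.22 (SE) and an adjusted p of 1.85e-07 (limma). LUM (lumican) had a log2 fold change of 1.51 (adjusted p = 0.00352) and FN1 (fibronectin) of 0.61 (adjusted p = 0.00317). For LUM, luteal phase ovaries 1 to 5 gave FPKM of 238, 187, 484, 313 and 158, and follicular phase ovaries 1 to 5 gave 103, 51.6, 81.6, 82.1 and 156. FN1 reached FPKM of 127, 121, 144, 114 and 88.1 in luteal phase ovaries 1 to 5, against 74.7, 65.1, 72.6, 89.1 and 85.3 in follicular phase ovaries 1 to 5. ASPN (asporin) was at -0.79 (adjusted p = 0.00165) and OGN (osteoglycin) at -0.48 (adjusted p = 0.0319). ASPN had FPKM of 50.5, 46.9, 64.6, 40.2 and 46.7 in luteal phase ovaries 1 to 5 and of 68.2, 79.6, 105, 105 and 75.2 in follicular phase ovaries 1 to 5. OGN lay at FPKM of 67.7, 53.7, 84.2, 57.1 and 48.2 in luteal phase ovaries 1 to 5 and at 81.7, 79.4, 96.02, 108 and 66.4 in follicular phase ovaries 1 to 5. LUM and ASPN separated the phases and FN1 and OGN did not. OGN lost its call without luteal phase ovary 2, 4 or 5 or follicular phase ovary 1, 3 or 4 (adjusted p of 0.0514 to 0.0767).

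Of 6 other basement membrane genes, NID2, a nidogen that links laminin to type IV collagen, was the only one called (0.98, adjusted p = 0.00156). FPKM of NID2 was 85.1, 69.3, 128, 69.4 and 78.3 in luteal phase ovaries 1 to 5 and 36.4, 56.5, 42.9, 46.95 and 33.4 in follicular phase ovaries 1 to 5. The phases did not overlap for it, and NID1, HSPG2 (perlecan), AGRN (agrin) and the laminin chains LAMB1 and LAMC1 were not called (log2 fold changes of -0.12 to 0.16). Among 11 receptors and uptake genes, 3 were higher in luteal and 4 in follicular phase ovaries, beside 15.9% and 27.8% of all genes. ITGA1, an integrin chain with a preference for type IV collagen, was higher in every luteal phase ovary. For ITGA1, luteal phase ovaries 1 to 5 gave FPKM of 46.97, 40.3, 60.6, 44.98 and 47.3, and follicular phase ovaries 1 to 5 gave 18.2, 17.9, 17.9, 17.1 and 16.4. With means of 48.04 ± 7.54 in luteal and 17.5 ± 0.7201 in follicular phase ovaries, it was 2.75-fold higher in the luteal phase (log2 fold change 1.44 ± 0.10 (SE), limma adjusted p = 1.44e-06). LAIR1, an inhibitory receptor of leukocytes, was at 0.97 (adjusted p = 0.0139) and ITGA2 at 0.82 (adjusted p = 0.014). LAIR1 had FPKM of 0.711, 0.641, 0.803, 0.6502 and 0.534 in luteal phase ovaries 1 to 5 and of 0.333, 0.0929, 0.482, 0.321 and 0.344 in follicular phase ovaries 1 to 5. ITGA2 lay at FPKM of 3.41, 5.68, 2.79, 3.91 and 4.10 in luteal phase ovaries 1 to 5 and at 1.95, 3.67, 1.66, 2.08 and 1.84 in follicular phase ovaries 1 to 5. LAIR1 separated the phases, and ITGA2 in follicular phase ovary 2 reached into the luteal range. Of 4 leukocyte markers, CSF1R was called higher in the luteal phase, with summed FPKM of 38.4 to 48.6 against 19.3 to 54.5, and their part in LAIR1 was not tested. ANTXR2 (-0.72, adjusted p = 0.00283), which takes up type VI collagen, the collagen receptor kinase DDR1 (-0.61, adjusted p = 0.00069) and the uptake receptor MRC2 (-0.54, adjusted p = 0.017) were higher in the follicular phase. FPKM of ANTXR2 was 42.2, 39.2, 44.03, 34.2 and 39.1 in luteal phase ovaries 1 to 5 and 64.7, 48.7, 68.5, 57.6 and 93.8 in follicular phase ovaries 1 to 5. For DDR1, luteal phase ovaries 1 to 5 gave FPKM of 6.73, 7.07, 6.25, 7.32 and 8.73, and follicular phase ovaries 1 to 5 gave 11.9, 9.85, 11.7, 10.9 and 10.7. MRC2 reached FPKM of 33.9, 24.04, 39.1, 21.9 and 24.4 in luteal phase ovaries 1 to 5, against 48.8, 39.6, 41.6, 34.8 and 39.6 in follicular phase ovaries 1 to 5. ANTXR2 and DDR1 separated the phases and MRC2 did not.

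Of 6 tested collagen-cleaving proteases, 3 were called higher in the follicular phase and 0 in the luteal phase by limma, beside 27.8% and 15.9% of all genes, and 0 had an unadjusted p under 0.05 in the luteal direction. MMP8 was listed but did not pass the filter on low values. MMP9 had FPKM of 2.101, 1.19, 4.25, 1.88 and 1.43 in luteal phase ovaries 1 to 5 and of 5.51, 9.34, 10.2, 14.9 and 12.4 in follicular phase ovaries 1 to 5. The gelatinase MMP9 was higher in every follicular phase ovary than in any luteal phase ovary. MMP9 was 4.82-fold higher in the follicular phase by its means of 2.17 ± 1.22 and 10.5 ± 3.51, with a log2 fold change of -2.28 ± 0.33 (SE) and a limma adjusted p of 0.000329. The gelatinase MMP2 was at -0.56 (adjusted p = 0.00228) and the collagenase MMP13 at -1.65 (adjusted p = 0.0414). FPKM of MMP2 was 84.9, 79.9, 105, 71.2 and 76.98 in luteal phase ovaries 1 to 5 and 126, 102, 139, 117 and 131 in follicular phase ovaries 1 to 5. For MMP13, luteal phase ovaries 1 to 5 gave FPKM of 0.206, 0.217, 0.05504, 0.528 and 0.0689, and follicular phase ovaries 1 to 5 gave 2.71, 0.186, 0.949, 1.19 and 0.341. Both overlapped between the phases, and MMP13 was called with every ovary kept but not without luteal phase ovary 1, 2, 3 or 5 or follicular phase ovary 1, 3 or 4 (adjusted p of 0.0605 to 0.0915). MMP13 also lost its call with a pseudocount of 1, where its log2 fold change was -0.66 (adjusted p = 0.0602).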

How the data were processed

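RNA from whole ovaries, depleted of ribosomal RNA, was sequenced as strand-specific paired-end libraries, 1 per ovary. Per the study's methods, the authors aligned reads with HISAT2 2.0.4, assembled transcripts with StringTie 1.3.1 and wrote the deposited FPKM per transcript and ovary with Cuffdiff 2.1.1. The genome build is not given in the sources used here, so no coordinates are printed. Read counts were not used here, so the depth of each ovary is unknown, a gene listed at 0 is not shown to be absent, and the spread between ovaries is the only measure of precision.

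FPKM of protein-coding transcripts was summed by symbol, and log2(FPKM + 0.1) of the 15359 genes with FPKM of at least 0.1 in 5 or more ovaries was tested with limma 3.58.1 in R 4.3.3 (lmFit, eBayes with trend, two-sided, luteal minus follicular), adjusted by Benjamini-Hochberg over all of them. Transcripts were fitted in the same way. Ratios were tested by exact permutation in scipy 1.17.1. In simulated data on 15359 genes with 200 changed, 22% of changes of log2 0.5 and 69% of changes of log2 1 were recovered, with 3.19% false calls. The simulation changed a far smaller part of the genes than the 43.7% called here. Its adjustment over all genes was therefore stricter, and these rates do not measure how many changes were missed in these data.

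Classes and partner lists follow general knowledge, and the members, lists and ratios were chosen with earlier results of these data known. Values by ovary are given for fibrillar, type IV and type VI genes with a mean FPKM of at least 1, for up to 4 called genes without overlap in each remaining class (COL18A1 was added for its ratio, and the overlapping COL14A1 after its values were seen) and for up to 3 called partners per list and direction. P4HA2 and LAMB2 were not analysed here. CYP11A1 was read under the symbol LOC102173131. Alternatives were other pseudocounts, filters and scalings, eBayes without trend, a replicate block, the most abundant transcript and leaving out each ovary. The labels do not tie ovaries of equal number to each other. Between ovaries of equal number, deviations from the phase means correlated at r of 0.0258 to 0.199 across genes. Of the 5 numbers, 2 matched best with their own, and these values cannot exclude a link. Neighbouring genes came from RefSeq's annotation of ARS1.2, in which all 44 gene IDs were found.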

Additional observations from a re-analysis of the deposited data

Results flagged for a closer look

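In each phase the highest or lowest of the 5 ovaries was compared with the nearest of the others, for the tested collagen genes, the named partners, the ratios and the class sums. Of 158 such groups, 13 held an ovary set apart by more than Dixon's 95% limit, where about 1 in 20, or 7.9, would be set apart by chance. No explanation for these values was tested.

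Follicular phase ovary 2 was set apart in 4 of them. Its FPKM of COL4A3 was 11.95 against 6.89 to 8.24 in the rest of its phase, and that of the neighbouring COL4A4 was 37.0 against 20.6 to 24.3. It also had 4.88 for LOXL4 against 0.907 to 1.395 and 3.67 for ITGA2 against 1.66 to 2.08.

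Follicular phase ovary 3 was high in COL7A1 (2.05 against 1.35 to 1.55) and LOXL3 (16.1 against 11.3 to 12.5), and follicular phase ovary 5 in COL6A6 (1.12 against 0.303 to 0.453). Luteal phase ovary 1 was high in COL8A2 (3.42 against 1.08 to 1.67) and in COL9A1 (0.558 against 0.0466 to 0.119). Luteal phase ovary 3 was high in NID2 (127.9 against 69.3 to 85.1) and in the ratio of COL18A1 to COL15A1 (0.5504 against 0.339 to 0.385). Luteal phase ovary 2 was high in ADAMTS3 (18.9 against 10.2 to 11.6), and luteal phase ovary 5 was low in COL11A1 (20.8 against 28.2 to 30.8).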

How the results depend on the processing

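Of the 20 called collagen genes, 17 kept their call and direction under all 20 alternatives and none reversed. COL14A1, COL27A1 and COL4A5 lost theirs on the most abundant transcript. Of the 19 collagen genes not called, 9 were called under some alternative. The number called was 18 on the most abundant transcript, 22 with a common median or quantile normalization, and 20 to 22 with single ovaries left out. Without the filter it was 23, but there all 44 genes were tested instead of 39. Of the 39, only COL11A2 gained a call in that setting, and the other added calls were of genes that the filter had kept out for low FPKM. Fold changes below the threshold turned sign for COL13A1 on the most abundant transcript (-0.26) and, with single ovaries left out, ran from -0.30 to 0.47 for COL22A1, from -0.13 to 0.29 for COL24A1 and from -0.0211 to 0.32 for COL5A1. Without a change of sign, single ovaries moved the uncalled COL9A1 between -0.86 and -0.32, COL6A5 between 0.24 and 0.74, COL6A6 between 0.31 and 0.72, COL21A1 between 0.03 and 0.22, COL6A3 between -0.21 and -0.02, COL5A2 between 0.04 and 0.19 and COL6A1 between 0.05 and 0.17. COL1A1 was called with a replicate block (0.29, adjusted p = 0.0452), which gave 21 calls, and the labels do not say whether equal ovary numbers are pairs.

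Pathway partners higher in the follicular phase numbered 12, but 6 after rescaling to a common total, 7 with a common median, and 7 to 14 with single ovaries left out. Of the 27 partners given with values by ovary, 20 kept their call under all alternatives and none reversed. The called SPARC, PCOLCE, TGM2, P4HA3 and ANTXR1 are not in this tally, and not all of them kept their call. CRTAP, TLL2, OGN, MRC2 and MMP13 were not called after rescaling to a common total, and all of these but MRC2 not with a common median. MMP13 was also not called without the filter, with quantile normalization or with a pseudocount of 1 (-0.66), CRTAP not with the replicate block (-0.27, adjusted p = 0.0514), and neither of them with eBayes without trend. On the most abundant transcript LAIR1, LOXL4, CRTAP, TLL2 and MMP13 were not called. The cause was not tested. For the ratios, the replicate block left COL3A1/COL1A1 (0.46), COL6A2/COL6A1 (-0.37), COL18A1/COL15A1 (-2.52) and COL4A1/COL1A1 (1.17) at an adjusted exact p of 0.0833, since 5 pairs allow no p below 0.0625. COL6A2/COL6A1 was -0.32 on the most abundant transcript (adjusted exact p = 0.0635) and -0.44 to -0.32 with single ovaries left out. COL5A2/COL5A1 ran from -0.17 to 0.0753 with single ovaries left out. In the same settings COL6A1/COL6A3 ran from 0.13 to 0.35, COL4A2/COL4A1 from -0.19 to -0.10 and COL1A2/COL1A1 from 0.17 to 0.295. The depth of each ovary is unknown, so counting error at low FPKM could not be separated from the spread between ovaries.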

Other observations

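Of the 20 tested hydroxylases and chaperones, 15 were not called, and the examples here were chosen after their values were seen. SERPINH1, the collagen chaperone of the endoplasmic reticulum, had a mean FPKM of 318 ± 46.1 in luteal and 337 ± 48.7 in follicular phase ovaries (log2 fold change -0.08, limma adjusted p = 0.627). P4HB, a subunit of prolyl 4-hydroxylase, had 302 ± 17.7 and 283 ± 35.95 (0.10, adjusted p = 0.41), and the lysyl hydroxylase PLOD2 had 30.7 ± 3.58 and 29.4 ± 2.56 (0.06, adjusted p = 0.636). Decorin (DCN), a small proteoglycan that binds fibrils, was abundant at 944 ± 182 and 1064 ± 141 and was not called (-0.18, adjusted p = 0.335).

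A further 5 called partners overlapped between the phases. SPARC (0.45, adjusted p = 0.0345), PCOLCE (0.49, adjusted p = 0.0301), TGM2 (0.44, adjusted p = 0.0147) and P4HA3 (0.48, adjusted p = 0.0269) were higher in the luteal phase by limma, and ANTXR1 (-0.41, adjusted p = 0.033) was higher in the follicular phase. ANTXR1 was not called without follicular phase ovary 1, after rescaling to a common total or with a common median. Some of the luteal calls of this group were also lost without follicular phase ovary 1. The membrane collagenase MMP14 had 72.1 ± 7.81 and 86.8 ± 11.0 and was not called (-0.26, adjusted p = 0.0508).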
